A study of Homo sapiens with 4 samples.

Results

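Ishikawa and T-47D are human cell lines of different epithelial origin, endometrial adenocarcinoma and carcinoma of the mammary ducts. Their transcriptomes were compared before estrogen was given. The comparison used every cell that the deposited call tables placed at 0 h. Ishikawa cells had to hold 8500 to 35000 unique molecular identifiers (UMIs, each marking 1 captured transcript), 2700 to 6000 genes and under 7% mitochondrial UMIs, and all called T-47D cells were used. This gave 776 Ishikawa and 1525 T-47D cells. These were 2301 of the 9239 cells kept at 0, 2, 4 and 8 h, each called to 1 time point. The limits were applied to Ishikawa only at every time. The T-47D cells used held 10358 to 39786 UMIs and at most 19.99% mitochondrial UMIs.

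The study treated both lines with 10 nM 17β-estradiol (E2, the main circulating estrogen) for 2, 4 or 8 h, and the 0 h cultures received the vehicle, DMSO. Before treatment both lines were moved to medium depleted of hormones, so the 0 h cells of both lines shared low estrogen and vehicle. Cultures were tagged by MULTI-seq, a membrane-anchored DNA barcode, then mixed and run as 1 droplet library of gene expression per line. The lines were bought from suppliers and their identity was not authenticated in the study. Each line was 1 culture at 0 h and 1 library, so line, culture and library cannot be told apart, no p-value is given, and every interval covers counting error only.

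Estrogen acts on breast and endometrial epithelium through the same nuclear receptor, but the genes it reaches depend on the other transcription factors of the cell. In the luminal cells of the mammary gland GATA3, FOXA1 and TRPS1 maintain the secretory and hormone-sensing state. The uterus forms from the Müllerian duct, whose epithelium is marked by PAX8, SOX17 and EMX2 and patterned along its length by the HOX genes, the homeodomain factors that give cells their position in the body.

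The pools held 13958474 UMIs for Ishikawa and 29666356 for T-47D once mitochondrial genes and the reporters GFP and tdTomato were removed, and levels are UMIs scaled to these totals as counts per 1000000 (CPM). Median depth per cell was 19121.5 and 20677 UMIs, and the median number of genes was 4344.5 and 4345. Mitochondrial UMIs differed, with medians of 4.12% in Ishikawa and 10.4% in T-47D. Depth and mitochondrial share both depend on the limits, which were applied here to Ishikawa only. The called T-47D cells already lay within the looser read and mitochondrial limits that the paper gives for that line. Before the limits the called Ishikawa cells at 0 h had medians of 10483.5 UMIs and 7.29% mitochondrial UMIs. The matrices shared 80 cell barcodes, and 9 Ishikawa and 4 T-47D cells used here carried one. A count of 0 allows up to 0.215 CPM in Ishikawa and 0.101 CPM in T-47D. Differences are log2((CPM + 1)/(CPM + 1)) of Ishikawa over T-47D, which understates the change of low genes, and folds are plain ratios of CPM unless given as log2. A fold against a pool with 0 UMIs is a lower bound set at 3 UMIs.

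Of 9261 genes with at least 10 CPM in either line, 744 (8.03%) were at least 4-fold higher in Ishikawa and 606 (6.54%) at least 4-fold higher in T-47D, 14.6% in either direction. Most genes were alike, with 61.9% of those tested within 2-fold and a median log2 difference of 0.17. The differences at the ends were those of presence and absence. No UMI was counted in T-47D for 96 of the 744 genes, and none in Ishikawa for 64 of the 606. The split depended on scaling. TMM factors centre the lines on their shared genes and move the median gene by -0.33 on the log2 scale. With them 566 genes were higher in Ishikawa and 809 in T-47D, and a log2 difference between 0 and 0.33 can change direction.

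**Figure D1:**
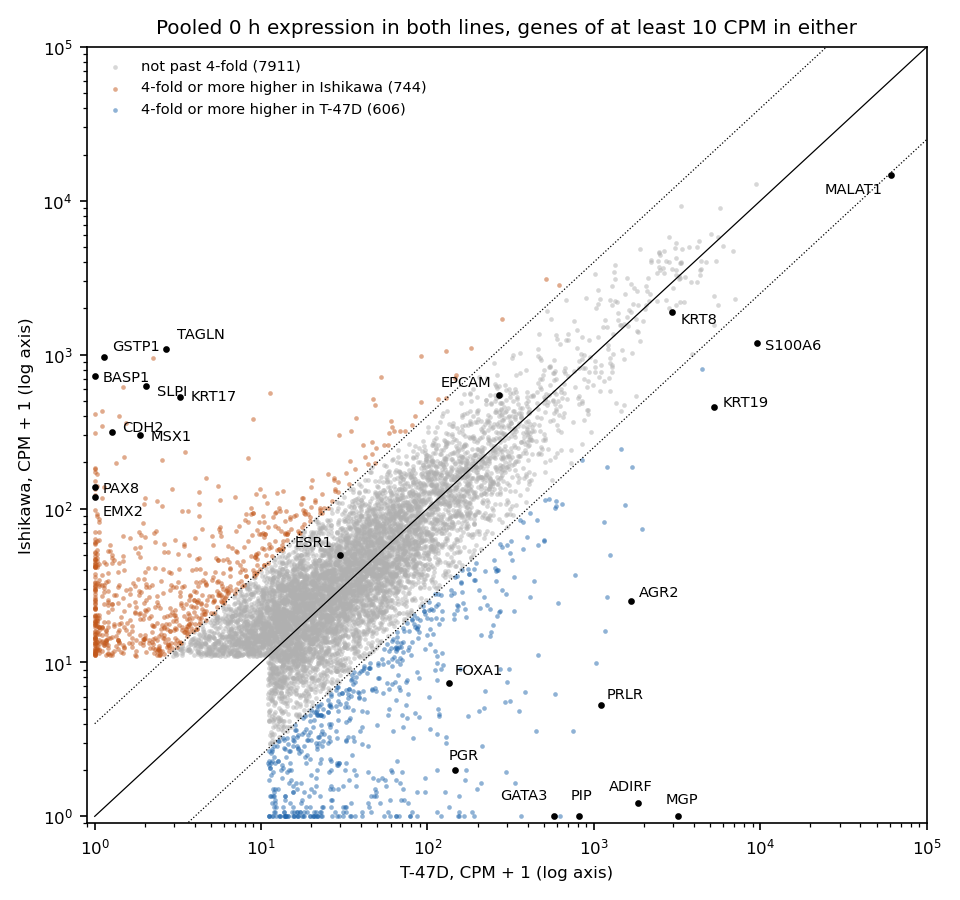
Expression in the pooled 0 h cells of T-47D (x axis) and Ishikawa (y axis), in CPM + 1 on log axes, for the 9261 genes of at least 10 CPM in either line. Each point is 1 gene, the solid line marks equal levels, dotted lines mark 4-fold, and colours mark the 744 genes higher in Ishikawa and the 606 higher in T-47D. PAX8, BASP1, GATA3 and MGP lie on the axes because the other line had 0 UMIs, whereas KRT8, EPCAM and ESR1 lie between the dotted lines.

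Among genes of at least 100 CPM in the higher line, the largest log2 difference towards Ishikawa was that of GSTP1, a glutathione transferase that detoxifies electrophiles, with 13527 UMIs (969 CPM) in Ishikawa and 4 UMIs in T-47D, a ratio of 7187-fold (95% interval 2806 to 26383). It was detected in 97.4% of Ishikawa cells thinned to 8000 UMIs each and in 0.0656% of T-47D cells. BASP1, a membrane-bound signalling protein, had 10114 UMIs in Ishikawa and 0 in T-47D, at least 7165-fold higher. LDHB, a subunit of lactate dehydrogenase, stood at 947 CPM in Ishikawa and 1.25 CPM in T-47D. The protocadherin PCDH9 had 412 CPM in Ishikawa and 0 UMIs in T-47D, at least 4073-fold higher. ANKRD1, a target of the YAP coactivators, was at 617 CPM in Ishikawa and 0.472 CPM in T-47D, yet only 46.5% of thinned Ishikawa cells held a UMI of it. KRTAP2-3, a keratin-associated protein gene with close relatives in its cluster, was likewise uneven at 309 CPM and 44.4% of cells, against 0 UMIs in T-47D. CYBA, a subunit of NADPH oxidase, had 341 CPM in Ishikawa and 3 UMIs in T-47D, 3369-fold (95% interval 1152 to 16344) higher.

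Towards T-47D the largest difference was that of MGP, matrix Gla protein, an inhibitor of calcification secreted by luminal cells, with 94953 UMIs (3201 CPM) in T-47D and 0 in Ishikawa, at least 14892-fold higher. A UMI of MGP was present in 99.5% of thinned T-47D cells and in 0 of 762 thinned Ishikawa cells, which allows a share of up to 0.394%. ADIRF, a small adipogenesis factor, reached 1833 CPM in T-47D against 3 UMIs in Ishikawa, 8530.1-fold (95% interval 2919 to 41365) higher. The histone variant gene H2AFJ stood at 586 CPM in T-47D and 0 UMIs in Ishikawa. SERPINA6, which encodes the carrier of cortisol in blood, had 189.7 CPM and 0 UMIs. CRIP1, a zinc-binding LIM protein, was at 2.58 CPM in Ishikawa and 751 CPM in T-47D, and EFHD1, a mitochondrial calcium-binding protein, at 0.645 CPM in Ishikawa and 332 CPM in T-47D. Each of these genes kept its direction in the 2, 4 and 8 h pools.

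The promoter sequences of the leading genes that have an entry in the RefSeq promoter table (GRCh38.p14, matching the hg38 build of the counts) are shown with those of PAX8 and GATA3, because the called genes differed from the rest in CpG content. Each runs 5′ to 3′ from 250 bases before to 50 after the annotated start, and capitals mark CG dinucleotides, the sites of DNA methylation. GSTP1 (chr11:67583562-67583861, plus strand) and BASP1 (chr5:17216573-17216872, plus strand) were higher in Ishikawa, and ADIRF (chr10:86968232-86968531, plus strand) and PIP (chr7:143131827-143132126, plus strand) in T-47D. PAX8 lies at chr2:113278872-113279171, minus strand, and GATA3 at chr10:8045083-8045382, plus strand.
GSTP1: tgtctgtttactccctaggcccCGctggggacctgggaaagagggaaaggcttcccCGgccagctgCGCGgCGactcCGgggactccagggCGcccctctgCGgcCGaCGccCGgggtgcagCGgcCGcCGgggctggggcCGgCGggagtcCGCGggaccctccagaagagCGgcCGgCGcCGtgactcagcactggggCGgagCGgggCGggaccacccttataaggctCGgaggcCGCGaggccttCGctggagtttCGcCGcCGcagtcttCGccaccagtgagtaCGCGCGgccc
BASP1: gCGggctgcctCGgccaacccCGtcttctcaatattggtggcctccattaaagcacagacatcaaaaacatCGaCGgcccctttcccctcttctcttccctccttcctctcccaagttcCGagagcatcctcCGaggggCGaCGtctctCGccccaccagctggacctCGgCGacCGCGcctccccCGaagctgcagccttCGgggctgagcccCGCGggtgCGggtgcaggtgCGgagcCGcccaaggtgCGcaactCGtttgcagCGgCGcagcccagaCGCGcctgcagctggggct
ADIRF: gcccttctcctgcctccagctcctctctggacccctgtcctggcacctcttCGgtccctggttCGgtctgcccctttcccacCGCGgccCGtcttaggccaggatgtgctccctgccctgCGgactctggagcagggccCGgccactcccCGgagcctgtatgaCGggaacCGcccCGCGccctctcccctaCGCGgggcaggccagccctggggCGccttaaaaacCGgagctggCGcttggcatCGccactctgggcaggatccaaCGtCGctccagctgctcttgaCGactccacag
PIP: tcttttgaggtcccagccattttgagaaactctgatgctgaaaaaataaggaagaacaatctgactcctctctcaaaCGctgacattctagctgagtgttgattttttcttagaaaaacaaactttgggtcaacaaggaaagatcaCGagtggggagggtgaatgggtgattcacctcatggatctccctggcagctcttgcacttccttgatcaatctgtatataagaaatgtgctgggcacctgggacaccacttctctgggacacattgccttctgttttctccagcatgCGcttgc
PAX8: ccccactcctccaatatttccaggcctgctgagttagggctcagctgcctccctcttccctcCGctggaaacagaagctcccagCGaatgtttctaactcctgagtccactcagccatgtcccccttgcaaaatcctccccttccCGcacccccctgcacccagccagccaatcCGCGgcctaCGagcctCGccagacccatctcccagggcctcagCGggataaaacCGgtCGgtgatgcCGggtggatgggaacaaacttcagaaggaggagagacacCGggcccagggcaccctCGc
GATA3: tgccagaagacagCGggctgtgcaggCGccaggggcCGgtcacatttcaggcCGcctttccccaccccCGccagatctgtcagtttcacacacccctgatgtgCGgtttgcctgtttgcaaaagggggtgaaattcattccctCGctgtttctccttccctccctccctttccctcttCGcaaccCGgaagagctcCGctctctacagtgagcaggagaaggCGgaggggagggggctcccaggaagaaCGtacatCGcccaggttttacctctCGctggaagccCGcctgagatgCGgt
The GSTP1 window holds 36 CG dinucleotides and the BASP1 window 27, against 21 in ADIRF, 3 in PIP, 13 in PAX8 and 16 in GATA3. Observed over expected CpG was 0.879 for GSTP1, 0.834 for BASP1 and 0.483 for PAX8. For the genes higher in T-47D it was 0.620 for ADIRF, 0.584 for GATA3 and 0.198 for PIP. These values hold for the annotated start used here, and any other start of a gene, such as GATA3, was not examined. The CG counts also vary with GC content, which was 74.0% in GSTP1 and 45.0% in PIP.

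Promoter windows were matched for 7361 of the tested genes. A CpG ratio under 0.6, which marks CpG-poor promoters, was found in 13.0% of them, in 21.4% of the 551 matched genes higher in Ishikawa, in 39.3% of the 427 higher in T-47D and in 10.5% of those not past 4-fold, against 51.0% of the 27305 windows of the whole table. Among tested genes CpG-poor windows were thus more frequent on both sides, and most frequent on the T-47D side, yet less so than in the table at large. The TATA box (TATAAA, either strand) was in 10.5% and 9.84% of the Ishikawa and T-47D genes against 5.15% of all tested and 11.95% of the whole table. The GATA motif AGATAA was in 4.54% and 4.92% against 4.13% of all tested and 10.5% of the table. For the forkhead motif TGTTTAC the shares were 1.45% and 3.98% against 2.19% and 3.41%, and for the AP-1 motif TGAGTCA 3.45% and 3.51% against 2.69% and 4.92%. These are shares of windows with the letters and say nothing of binding.

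Most markers of breast luminal identity that reached 10 CPM were higher in T-47D. A member of a list had to reach 10 CPM in 1 line to be counted, so a member present through a single line had to differ, and the counts below are descriptions to be read beside 8.03% and 6.54% of all genes. Of the 16 breast luminal transcription factors 10 reached 10 CPM, 7 of these were higher in T-47D and 0 in Ishikawa, with a median log2 difference of -3.94 against 0.17 over all tested genes. GATA3, the defining factor of luminal cells, had 17175 UMIs in T-47D (579 CPM) and 0 in Ishikawa, at least 2694-fold higher. It was found in 97.2% of thinned T-47D cells and in 0 of 762 Ishikawa cells.

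TRPS1, a GATA-type repressor of the mammary lineage, was at 23.2 CPM in Ishikawa and 607 CPM in T-47D, 26.1-fold (95% interval 23.4 to 29.3) higher in T-47D. FOXA1, the pioneer factor that opens chromatin for the estrogen receptor, was at 6.30 CPM in Ishikawa and 133 CPM in T-47D, 21.1-fold (95% interval 17.1 to 26.4) higher in T-47D, with a UMI in 5.38% and 62.4% of thinned cells. FOXA1 and TRPS1 were therefore low rather than absent in Ishikawa. SPDEF, an ETS factor of secretory epithelium, had 1 UMI in Ishikawa and 5430 in T-47D, and ELF5, which drives the alveolar fate, had 2 and 3984. TFAP2A was 14.2-fold (95% interval 11.9 to 17.2) higher in T-47D. The members not past 4-fold were XBP1, a regulator of secretory capacity (-1.57 on the log2 scale), LMO4 (-0.19) and ZNF703 (0.94).

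Breast luminal and secretory markers were split more sharply. Of 24 members 14 reached 10 CPM, 10 were higher in T-47D and 2 in Ishikawa, with a median of -5.30, or -5.85 with genes at 0 UMIs set at their bound. PIP, prolactin-induced protein, had 24232 UMIs in T-47D and 0 in Ishikawa, at least 3801-fold higher. The trefoil peptide TFF3 had 18582 and 0, at least 2914-fold. The long non-coding RNA DSCAM-AS1 had 10771 and 0. The sources here do not state how the counting used strand, and any part of DSCAM introns in this count was not tested. The disulfide isomerase AGR2 stood at 24.1 CPM in Ishikawa and 1670.3 CPM in T-47D, 69.4-fold (95% interval 62.3 to 77.5) higher, and its neighbour AGR3 at 0.430 CPM in Ishikawa and 85.9 CPM in T-47D. PRLR, the prolactin receptor, stood at 4.30 CPM in Ishikawa and 1098 CPM in T-47D, 256-fold (95% interval 198 to 335) higher in T-47D.

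The exceptions were 2 secretoglobins. SCGB2A1 had 438 UMIs in Ishikawa and 2 in T-47D, 465-fold (95% interval 128 to 3855) higher, and SCGB1D2 had 222 and 2. Other markers of the mammary gland were near 0 in both lines. SCGB2A2 (mammaglobin) had 0 and 2 UMIs, ANKRD30A had 0 and 2, and the milk protein genes CSN2 and LALBA had 0 in both. T-47D cells thus carried luminal factors and part of the secretory set without milk genes.

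Endometrial transcription factors and epithelial markers that reached 10 CPM were in part higher in Ishikawa and in part higher in T-47D. Of 23 endometrial and Müllerian transcription factors 11 reached 10 CPM, 6 were higher in Ishikawa and 2 in T-47D, and the median was 4.14. PAX8, a paired-box factor of Müllerian epithelium, had 1923 UMIs in Ishikawa (138 CPM, 95% interval 132 to 144) and 0 in T-47D, at least 1362-fold higher. EMX2, needed for the urogenital tract, had 1648 and 0. SOX17, a regulator of endometrial epithelium, had 802 and 0. HOXA10, the HOX gene of the uterus, had 837 and 0. None of the 4 was detected in the breast line, and in thinned Ishikawa cells they were detected in 56.8%, 52.8%, 29.4% and 36.4%, against 0 of 1525 T-47D cells, which allows up to 0.197%.

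The homeobox paralogs MSX1 and MSX2 went in opposite directions. MSX1 was at 301 CPM in Ishikawa and 0.876 CPM in T-47D, 343-fold (95% interval 234 to 526) higher in Ishikawa, whereas MSX2 had 0 UMIs in Ishikawa and 2530 in T-47D, at least 397-fold higher there. MEIS1 and NR2F2, of other families, also parted. MEIS1, a HOX cofactor, was 30.3-fold (95% interval 21.9 to 43.1) higher in Ishikawa, and NR2F2 (COUP-TFII), an orphan receptor of uterine stroma, was 169-fold (95% interval 101 to 309.6) higher in T-47D at 1.00 CPM in Ishikawa and 169.6 CPM in T-47D. FOXA2, the factor of endometrial glands, had 0 and 1 UMIs, so neither line showed it at the depth used.

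Of 20 endometrial epithelial markers 7 reached 10 CPM, 4 higher in Ishikawa and 3 in T-47D, and the median was 3.86 (4.01 with the gene at 0 UMIs at its bound), while the summed list went slightly the other way (-0.28 as a log2 ratio). The whey-acidic proteins led the Ishikawa side. SLPI, an inhibitor of proteases in mucus, was at 629 CPM in Ishikawa and 1.04 CPM in T-47D, 601-fold (95% interval 423 to 886) higher, and WFDC2 (HE4) at 401 CPM in Ishikawa and 0.404 CPM in T-47D, 991-fold (95% interval 567 to 1920.0) higher. KLF5 was 23.1-fold (95% interval 17.8 to 30.3) higher, and MUC16, the CA125 antigen, had 189 UMIs in Ishikawa and 0 in T-47D. On the T-47D side stood CD24, a surface glycoprotein of many epithelia, at 15.0 CPM in Ishikawa and 1167 CPM in T-47D, with the folate receptor FOLR1 (-2.67) and LYPD3 (-4.83). PAEP (glycodelin), the secretory-phase marker, had 0 and 2 UMIs.

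**Figure D2:**
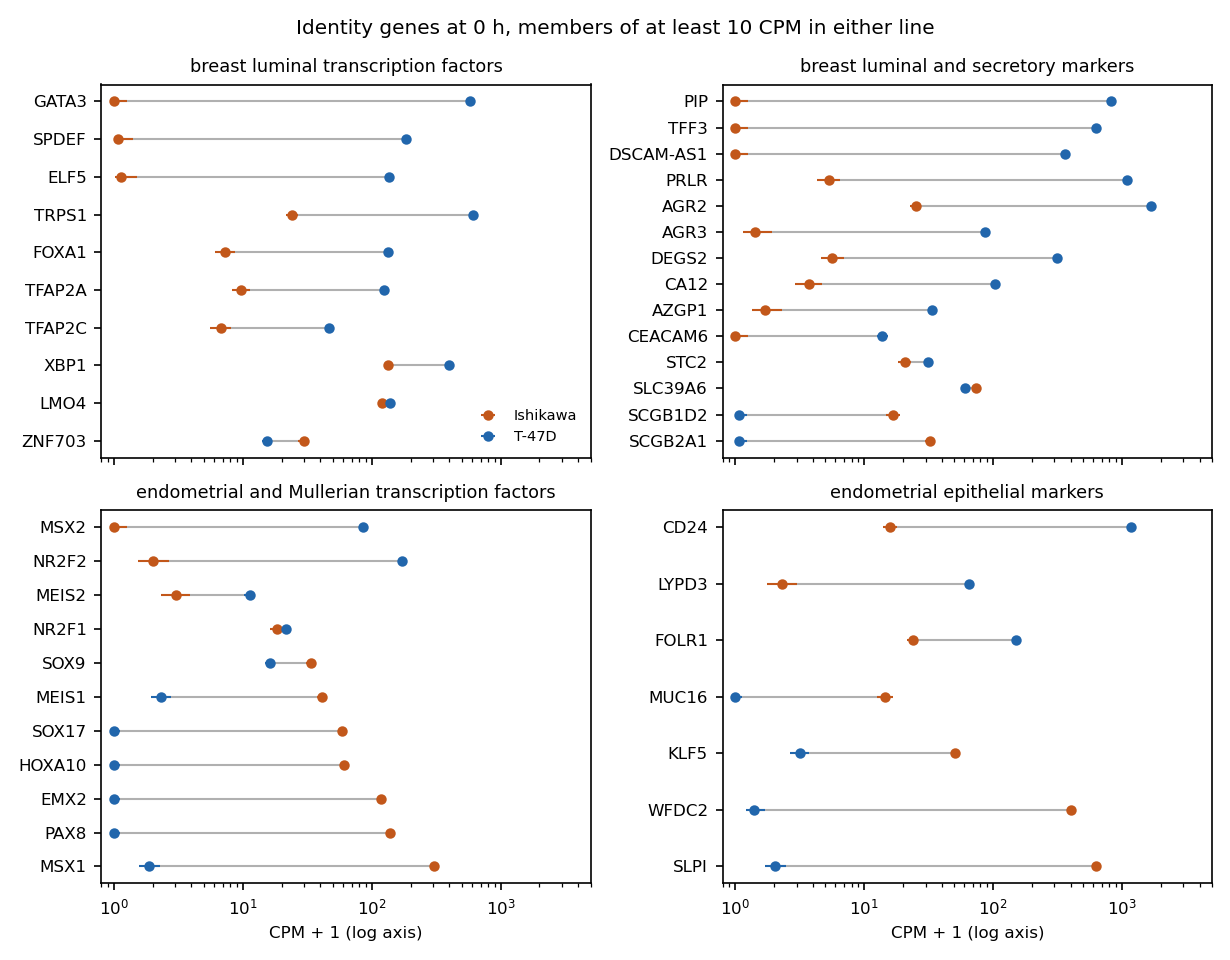
Levels of the identity genes in Ishikawa (orange) and T-47D (blue) at 0 h, in CPM + 1 on a log axis, for list members of at least 10 CPM in either line. Bars are 95% Poisson intervals and grey lines join the lines of 1 gene, ordered within each panel by the difference. The breast panels have T-47D to the right except for SCGB2A1 and SCGB1D2, SLC39A6 and ZNF703, and the endometrial panels hold genes far apart in either direction, such as MSX1 and MSX2.

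In single cells the lists separated the lines to different degrees. The breast luminal transcription factors summed to a median of 2 UMIs per thinned Ishikawa cell (5th to 95th percentile 0 to 6) and 18 per T-47D cell (9 to 31), and the luminal and secretory markers to 1 (0 to 4) and 38 (21 to 75), so these ranges did not overlap between the lines. For the endometrial transcription factors the medians were 6 (1 to 13) and 2 (0 to 6), which overlap. The endometrial epithelial markers gave 8 (1 to 22) in Ishikawa and 11 (4 to 20) in T-47D, and so did not tell the lines apart.

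**Figure D3:**
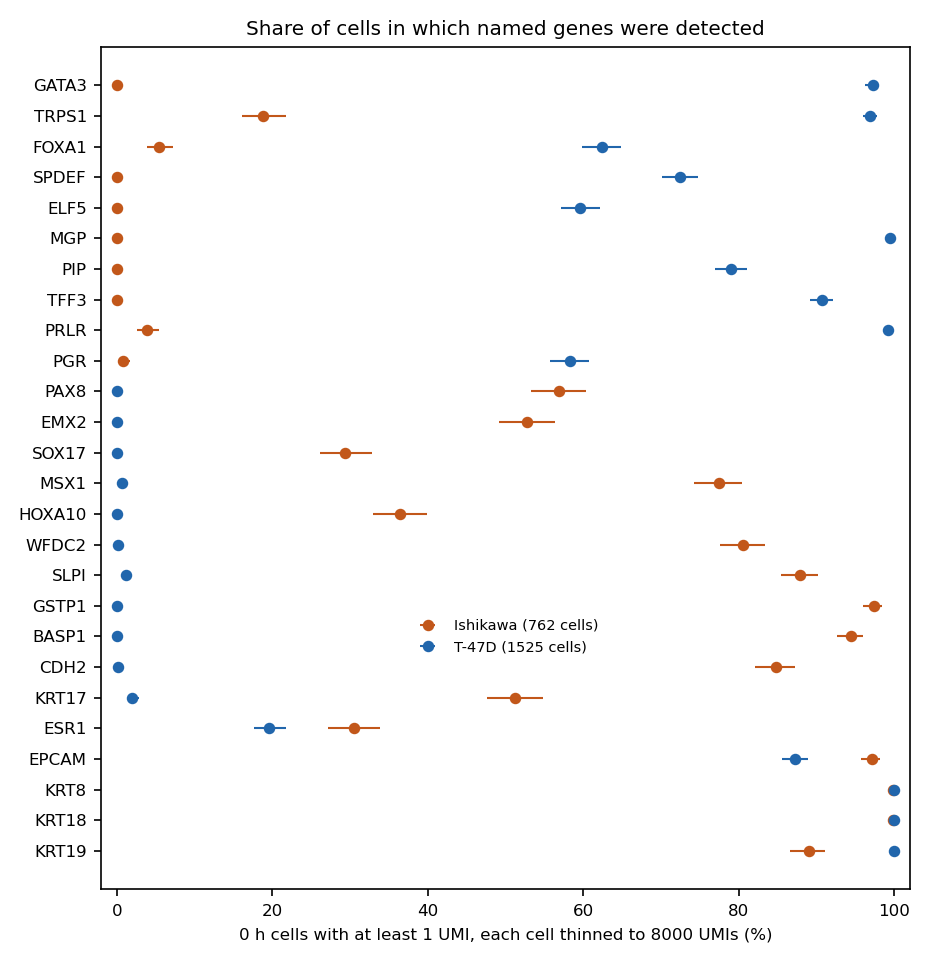
Share of 0 h cells with at least 1 UMI of each named gene, in percent, after each cell was thinned to 8000 UMIs (762 Ishikawa cells in orange, 1525 T-47D cells in blue). Bars are 95% Clopper-Pearson intervals. GATA3 was present in 97.2% of T-47D cells and in none of the Ishikawa cells, PAX8 in 56.8% of Ishikawa cells and in no T-47D cell, and ESR1, EPCAM, KRT8 and KRT18 were present in both lines.

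The lines used different HOX clusters. Of 39 HOX genes 16 reached 10 CPM, 10 higher in Ishikawa and 4 in T-47D, and the median log2 difference was 3.43. The HOXA genes (chr7:27092993-27200091, GRCh38.p14) summed to 150.2 CPM in Ishikawa (95% interval 144 to 157) and 1.82 CPM in T-47D (95% interval 1.37 to 2.38). HOXD (chr2:176087487-176190907) likewise gave 49.7 CPM in Ishikawa (95% interval 46.1 to 53.6) and 0.0674 CPM in T-47D (95% interval 0.00816 to 0.244). HOXC (chr12:53938831-54056030) was the reverse, with 7.52 CPM in Ishikawa (95% interval 6.15 to 9.11) and 204 CPM in T-47D (95% interval 199 to 209), and HOXB (chr17:48528526-48728750) gave 160.4 CPM in Ishikawa (95% interval 154 to 167) and 40.3 CPM in T-47D (95% interval 38.1 to 42.7). Ishikawa thus expressed HOXA, HOXB and HOXD, and T-47D expressed HOXC with part of HOXB.

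Within the clusters HOXA7 (61.5 CPM in Ishikawa and 2 UMIs in T-47D) and HOXA10 led HOXA, while HOXD8 (17.6 CPM and 0 UMIs) and HOXD9 (19.3 CPM and 1 UMI) led HOXD. In HOXC the T-47D signal was highest for HOXC10, 295-fold (95% interval 135 to 804) higher than in Ishikawa, followed by HOXC11 and HOXC13, each with 0 UMIs in Ishikawa. HOXC9 was the only HOXC gene of several CPM in Ishikawa, at 6.45 CPM in Ishikawa and 15.6 CPM in T-47D. HOXB was split by position: HOXB2 had 0 UMIs in Ishikawa and 815 in T-47D, whereas HOXB4 (79.7-fold (95% interval 36.0 to 219)) and HOXB8 (63.2-fold (95% interval 34.8 to 128)) were higher in Ishikawa, as were HOXB5, HOXB6, HOXB7 and HOXB9, named after their values were seen.

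**Figure D4:**
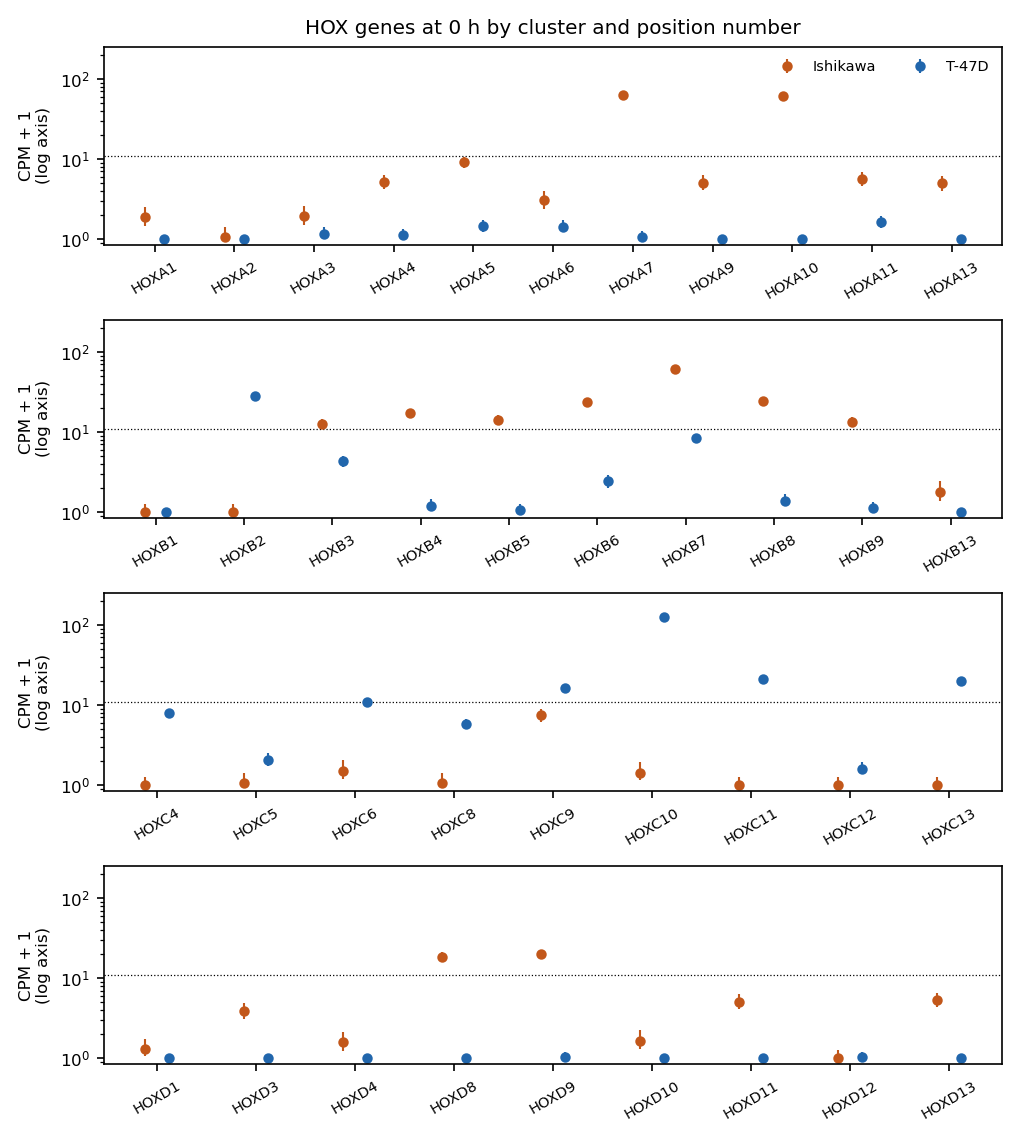
Levels of the 39 HOX genes in Ishikawa (orange) and T-47D (blue) at 0 h, in CPM + 1 on a log axis, 1 panel per cluster and ordered by gene number. Bars are 95% Poisson intervals and the dotted line marks 10 CPM. Ishikawa lies above T-47D in HOXA and in most of HOXD, T-47D lies above Ishikawa throughout HOXC, and HOXB2 is the T-47D exception in HOXB.

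The epithelial cytoskeleton was shared in its main components and differed in others. KRT8 and KRT18, the keratin pair of simple epithelia, were at 1904 CPM in Ishikawa and 2942 CPM in T-47D and at 2197 CPM in Ishikawa and 3482 CPM in T-47D, both under 4-fold. Their log2 differences moved from -0.63 and -0.66 at 0 h to -1.64 and -1.42 in the 8 h pools. KRT19 was at 455 CPM in Ishikawa and 5293 CPM in T-47D, 11.6-fold (95% interval 11.3 to 11.9) higher in T-47D. KRT7 was 4.48-fold (95% interval 4.23 to 4.75) higher in T-47D, but under 4-fold at 4 h (-1.95) and 8 h (-1.88). KRT17 and KRT5, keratins of basal layers, were higher in Ishikawa. KRT17 was at 533 CPM in Ishikawa and 2.26 CPM in T-47D and KRT5 had 433 UMIs against 0, though in 9.97% of thinned Ishikawa cells only. Of 21 keratins 10 reached 10 CPM, 2 were higher in Ishikawa and 3 in T-47D (median -0.65).

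Of 30 claudin and junction genes 23 reached 10 CPM, 18 of these were not past 4-fold, and the median was -0.46. The share higher in Ishikawa was 4.35% (1 gene) against 8.03% of all genes. The share higher in T-47D was 17.4% (4 genes) against 6.54%. The tight-junction claudins CLDN1 (-3.69), CLDN3 (-3.80) and CLDN4 (-2.36) were higher in T-47D, and CLDN9 (3.78) in Ishikawa. EPCAM, the pan-epithelial adhesion molecule, was at 545 CPM in Ishikawa and 268 CPM in T-47D and CDH1 (E-cadherin) at 67.3 CPM in Ishikawa and 174 CPM in T-47D.

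Some genes of mesenchymal and contractile cells were higher in Ishikawa, but the mesenchymal list summed to near-equal levels. Of 21 mesenchymal genes 8 reached 10 CPM, 4 higher in Ishikawa and 1 in T-47D, and the median was 2.21 (3.22 with the gene at 0 UMIs at its bound). The summed list was at 2102 CPM in Ishikawa and 1763 CPM in T-47D (0.25 as a log2 ratio), with medians of 14 and 13 UMIs per thinned cell. CDH2 (N-cadherin) was at 315 CPM in Ishikawa and 0.270 CPM in T-47D, 1169-fold (95% interval 593 to 2709) higher, the actin-binding TAGLN at 1081 CPM in Ishikawa and 1.69 CPM in T-47D, and CAV1, which forms caveolae, at 57.0 CPM in Ishikawa and 0.236 CPM in T-47D. VIM, the defining intermediate filament of mesenchyme, was low in both lines at 3.15 CPM in Ishikawa and 6.27 CPM in T-47D, and SNAI2 and ZEB2 had at most 4 UMIs in either line. S100A4 (-2.20) was higher in T-47D. The pool of Ishikawa cells thus held N-cadherin and E-cadherin transcripts with little vimentin.

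Of the markers of other cell types, those of blood and vessel cells were near 0, whereas some fibroblast and basal markers were not. Endothelial markers summed to 1.86 CPM in Ishikawa and 0.169 in T-47D, leukocyte markers to 2.01 and 1.15, and erythroid markers to 0.931 and 1.62, and none of these 26 genes reached 10 CPM. PTPRC, CDH5 and HBB were at 0 in both. The 10 fibroblast markers summed to 151 and 25.1 CPM, of which ACTA2 (smooth-muscle actin) alone gave 117 in Ishikawa. Of these 10, COL1A1 (31.7 CPM in Ishikawa and 6.24 CPM in T-47D) and ACTA2 were called higher in Ishikawa, though COL1A1 lost its call with TMM or median-of-ratios factors and in each later pool (1.61, 1.62 and 1.37 as log2 differences). On the T-47D side was LUM (0 and 355 UMIs), which lost its call at 2 and 8 h and with a pseudocount of 5 CPM. The defining COL1A2 and PDGFRB had at most 1 UMI. Of the 11 myoepithelial and basal markers 5 reached 10 CPM and all 5 (KRT5, KRT17, ACTA2, CNN1 and LAMA3) were higher in Ishikawa, with a median of 5.46 with KRT5 at its bound. The 11 summed to 756 CPM in Ishikawa and 14.6 CPM in T-47D, with at least 1 UMI in 73.2% and 11.5% of thinned cells, and KRT17 made up most of the Ishikawa sum. TP63, the basal transcription factor, had 4 and 1 UMIs.

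The estrogen receptor itself differed little. ESR1 had 681 UMIs in Ishikawa (48.8 CPM, 95% interval 45.2 to 52.6) and 857 in T-47D (28.9 CPM, 95% interval 27.0 to 30.9), a ratio of 1.69-fold (95% interval 1.52 to 1.87), and was detected in 30.4% and 19.6% of thinned cells. Its log2 difference was 0.74 at 0 h and -0.18 at 8 h. The receptor for progesterone separated the lines. PGR, itself a classical estrogen target, was at 1.00 CPM in Ishikawa and 145 CPM in T-47D, 144-fold (95% interval 86.0 to 264) higher in T-47D, and in the later pools it ranged over 2.46 to 5.12 CPM in Ishikawa and 290.4 to 396 CPM in T-47D.

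Among all 48 nuclear receptors 20 reached 10 CPM, 4 were higher in T-47D, among them NR2F2, PGR and VDR, and 0 in Ishikawa, with a median of -0.59. VDR, the vitamin D receptor, at 5.30 CPM in Ishikawa and 29.7 CPM in T-47D, was close to the fold limit. ESR2, the beta receptor for estrogen, had 13 and 28 UMIs. Of 25 coregulators of the estrogen receptor 24 reached 10 CPM, and the median was 0.06. In Ishikawa 1 (4.17%) was higher and in T-47D 2 (8.33%), not far from the 8.03% and 6.54% of all genes. The coactivators NCOA1 (-0.03) and NCOA3 (-1.37) and the corepressor NCOR1 (0.10) were under 4-fold. The 3 called members were PHB2, a prohibitin that represses the estrogen receptor, at 268 CPM in Ishikawa and 45.4 CPM in T-47D, CITED2, a partner of CBP and p300, at 21.7 CPM in Ishikawa and 205 CPM in T-47D, and GREB1, a receptor-bound estrogen target, at 1.29 CPM in Ishikawa and 11.6 CPM in T-47D. GREB1 lost its call with a pseudocount of 5 CPM and with the Ishikawa cell limits on both lines.

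Enzymes that make and inactivate estrogens were mixed. Of 25 steroid metabolism genes 13 reached 10 CPM, with 2 higher in each line and a median of -0.50. HSD17B1, which reduces estrone to estradiol, was 4.85-fold (95% interval 4.30 to 5.47) higher in T-47D, and HSD17B8, which oxidises estradiol, 5.46-fold (95% interval 4.64 to 6.45) higher. In Ishikawa HSD17B11 had 209 UMIs against 0, and AKR1C2 had 168 against 1. AKR1C2 shares much of its sequence with AKR1C1 and AKR1C3, so its count is uncertain. Aromatase (CYP19A1) had 0 UMIs in both lines, and the estrogen sulfotransferase SULT1E1 had 31 UMIs in Ishikawa and 0 in T-47D.

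Growth factor receptors past 4-fold lay mostly on the T-47D side, and the ligands past 4-fold mostly on the Ishikawa side. Of 30 receptors 16 reached 10 CPM, 2 higher in Ishikawa and 7 in T-47D (median -1.08). The receptors of the ERBB family differed. EGFR was at 29.4 CPM in Ishikawa and 11.9 CPM in T-47D, under 4-fold, ERBB3 was 7.92-fold (95% interval 7.04 to 8.93) higher in T-47D, ERBB4 had 1 UMI in Ishikawa and 481 in T-47D, and ERBB2 (HER2), named after its values were seen, was at 19.6 CPM in Ishikawa and 95.1 CPM in T-47D. IGF1R (-2.33), FGFR4 (-2.78) and GHR, the growth hormone receptor (-4.10), were also higher in T-47D. IGF1R lost its call with a pseudocount of 5 CPM, with every called cell and with the Ishikawa cell limits on both lines. TGFBR2, the ligand-binding receptor of TGFβ, had 326 UMIs in Ishikawa and 0 in T-47D, at least 231-fold higher, and EPHA2 had 239 and 1. TGFBR1, its partner, was under 4-fold (-0.55).

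Of 31 ligands and binding proteins 18 reached 10 CPM, 8 higher in Ishikawa and 2 in T-47D, and the median was 1.44. TGFB1, the ligand of TGFBR2, was also on the Ishikawa side at 22.5 CPM in Ishikawa and 0.202 CPM in T-47D, as were FGF18 (81.4 CPM in Ishikawa and 0.0674 CPM in T-47D), the FGF carrier protein FGFBP1 (232 CPM in Ishikawa and 2.49 CPM in T-47D), the ERBB3 ligand NRG1 (171 and 2 UMIs) and GDF15 (25.6 CPM in Ishikawa and 1.11 CPM in T-47D). The insulin-like growth factor binding proteins differed among themselves. IGFBP3 had 432 CPM in Ishikawa and 3 UMIs in T-47D, 4275-fold (95% interval 1462 to 20738) higher, IGFBP4 was 52.6-fold (95% interval 26.6 to 122) higher in T-47D, and IGFBP5 was almost equal at 823 CPM in Ishikawa and 864 CPM in T-47D. BMP4 was 12.4-fold (95% interval 8.67 to 18.4) higher in T-47D.

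Among the 60 members of developmental transcription factor families 32 reached 10 CPM, 9 higher in Ishikawa and 12 in T-47D, and the median was -0.51. Beyond the factors named above, FOXD1 (80.8-fold (95% interval 59.3 to 113)) and ZIC2 (29.3-fold (95% interval 22.1 to 39.6)) were higher in Ishikawa. The Iroquois genes were T-47D genes. IRX2 had 0 UMIs in Ishikawa and 1747 in T-47D, at least 274-fold higher, IRX3 was 25.7-fold (95% interval 19.4 to 35.0) higher, and IRX5, named after its values were seen, was at 3.37 CPM in Ishikawa and 33.4 CPM in T-47D. SOX4 (-0.03), ELF3 (0.11) and KLF6 (-0.24) were nearly equal.

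Cancer-testis and oncofetal genes reached 10 CPM in 7 of 26 cases, 5 higher in Ishikawa and 0 in T-47D (median 4.19). MAGEA3, MAGEA6 and MAGEA12, melanoma antigens on the X chromosome, were at 88.2, 79.4 and 39.5 CPM in Ishikawa and 3.24, 0.944 and 1.58 CPM in T-47D. They are near-identical copies, so the split of reads among them is uncertain. MAGEA1 went the other way with 2 UMIs in Ishikawa and 280 in T-47D, under 10 CPM. The fetal RNA-binding proteins IGF2BP2 (72.6-fold (95% interval 49.6 to 111)) and IGF2BP3 (258 and 2 UMIs) were higher in Ishikawa, and the imprinted PEG10 was at 627 CPM in Ishikawa and 267 CPM in T-47D.

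Antigen presentation by MHC class I differed in both directions. Of 16 members 10 reached 10 CPM, 6 higher in T-47D and 1 in Ishikawa, with a median of -3.74 (-4.09 with genes at 0 UMIs at their bound). HLA-B was 64.5-fold (95% interval 50.4 to 84.0) higher in T-47D, at 4.51 CPM in Ishikawa and 291 CPM in T-47D, and HLA-C 16.4-fold (95% interval 14.2 to 18.9) higher. Reads of these polymorphic genes are counted against 1 reference allele each, so the counts also depend on the alleles a line carries, whose part was not tested. B2M, the invariant light chain, was within 2-fold (-0.82).

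A run of neighbouring genes in the class II region had no UMI in Ishikawa. PSMB8 (chr6:32840717-32844679), TAP1 (chr6:32845209-32853704) and PSMB9 (chr6:32854192-32859851), which encode immunoproteasome subunits and a peptide transporter, had 0 UMIs in Ishikawa and 551, 617 and 315 in T-47D. TAP2 (chr6:32821831-32838739), beside them, had 0 and 85. NLRC5, the class I transactivator on chromosome 16, had 0 and 14. TAPBP, the chaperone that loads peptides, was at 2.79 CPM in Ishikawa and 70.3 CPM in T-47D. Among 12 mucins 2 reached 10 CPM and they were on opposite sides. MUC1, a membrane mucin, was at 2.58 CPM in Ishikawa and 449.9 CPM in T-47D, 174-fold (95% interval 126 to 249) higher in T-47D, and MUC16 was the Ishikawa one.

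Transcripts of dividing cells were found in a larger share of the Ishikawa cells used than of the T-47D cells used. A UMI of TOP2A or MKI67 was found in 55.9% of thinned Ishikawa cells (95% interval 52.3% to 59.5%) and 20.7% of T-47D cells (18.7% to 22.8%). Before thinning the shares were 66.1% and 32.6%. The Ishikawa shares come from the 38.2% of called cells that were kept. Every called T-47D cell was used, all already within the paper's looser read and mitochondrial limits for that line. No such share is given for cells chosen alike in both lines, so the part of cell selection in this gap was not tested. Of 42 S phase genes 40 reached 10 CPM, 7 higher in Ishikawa and 0 in T-47D, and the median was 1.28. Of 52 G2 and mitosis genes 50 did, 3 (6.0%, under the 8.03% of all genes) higher in Ishikawa and 0 in T-47D, and the median was 0.91. Those 3, CDCA3, HJURP and MKI67, all lost their call with TMM or median-of-ratios factors, with the Ishikawa cell limits on both lines, and at 2, 4 and 8 h. In the 8 h pools the medians were 0.69 and 0.48. TYMS, thymidylate synthase, was 6.86-fold (95% interval 6.31 to 7.47) higher in Ishikawa, and the helicase subunit MCM5 5.42-fold (95% interval 4.76 to 6.17). Of the 7 S phase calls 3 held at 0, 2, 4 and 8 h. MCM5 was under 4-fold at 4 h (1.98 on the log2 scale) and 8 h (1.31). CDCA7, a cofactor of DNA methylation, had 300 UMIs in Ishikawa and 0 in T-47D, a difference of another order than the rest of its list. MKI67 was 4.19-fold (95% interval 3.93 to 4.48) higher, just past the limit, and not every mitotic gene went that way: AURKA (-0.99) and HMMR (-1.35) had higher levels in T-47D. Calls were repeated in the 263 Ishikawa and 1028 T-47D cells without a UMI of either marker, and 685 of the 744 and 559 of the 606 genes were called there too.

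Immediate-early and stress genes differed in direction between their members. Of 27 genes 19 reached 10 CPM, 7 higher in Ishikawa and 3 in T-47D. Their median was 1.10 but the summed list went the other way (-1.49 as a log2 ratio), carried by HSPB1 at 807 CPM in Ishikawa and 4462 CPM in T-47D. EGR1 had 212 UMIs in Ishikawa and 2 in T-47D, GADD45A was 16.1-fold (95% interval 13.3 to 19.7) higher in Ishikawa and MYC 7.82-fold (95% interval 6.01 to 10.3), though MYC was under 4-fold at 2, 4 and 8 h (1.73, 1.98 and 1.87 on the log2 scale) and with a pseudocount of 5 CPM. IER3 was 5.25-fold (95% interval 4.72 to 5.86) higher in T-47D at 0 h (-2.35) and more so at 8 h (-4.82). The heat-shock genes HSPA1A (3.87 CPM in Ishikawa and 204 CPM in T-47D) and HSPA1B (92.6 CPM in Ishikawa and 22.1 CPM in T-47D, named after its values were seen) encode the same protein from near-identical copies, so their opposite directions are uncertain. HSPA6 was present in 4.07% of thinned Ishikawa cells, and the top 1% of Ishikawa cells held 65.7% of its UMIs. It lost its call at 2 h and with only the Ishikawa cells under 1% GFP. ATF3 lost its call with those cells, with TMM or median-of-ratios factors, and at 2, 4 and 8 h. BTG2 also lost its call at 2, 4 and 8 h, and both lost it with a pseudocount of 5 CPM.

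In absolute CPM the largest differences were those of abundant RNAs. The 5 genes furthest towards Ishikawa were ribosomal protein genes, RPS2 (9207 CPM in Ishikawa and 3325 CPM in T-47D), RPL41, RPLP1, RPL37A and RPL36, none of them past 4-fold. Of 40 ribosomal protein genes 1 was past 4-fold, RPL22L1, 8.31-fold (95% interval 8.01 to 8.61) higher in Ishikawa, and the median of the 40 was 0.50, or 0.16 with TMM factors. Towards T-47D stood MALAT1, a nuclear long non-coding RNA, at 14719 CPM in Ishikawa and 61329.6 CPM in T-47D, with the calcium-binding S100A6 (1183 CPM in Ishikawa and 9527 CPM in T-47D), KRT19, SERF2 (-1.61) and S100A11 (-1.77). MALAT1 was close to 4-fold (-2.06) and lost its call in 6 of the alternatives, among them thinned cells (-1.97), every called cell (-1.44) and the Ishikawa limits on UMIs, genes and mitochondrial share applied to both lines (-1.01). Mitochondrial UMIs were 4.12% of the Ishikawa pool and 10.6% of the T-47D pool, and their part in the MALAT1 difference was not tested. With those limits on both lines (776 and 321 cells), 703 of the 744 and 515 of the 606 calls were kept.

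Differences of a smaller kind ran along chromosomes. Over the 6646 genes of at least 10 CPM in both lines the median log2 difference was 0.085, and by chromosome it ran from -0.35 on chromosome 20 and -0.29 on chromosome 11 to 0.52 on chromosome 4, 0.56 on chromosome 13 and 0.65 on chromosome 18. Within 130 windows of 10 Mb with at least 20 such genes, the highest was the first 10 Mb of chromosome 12, with a median of 1.16 over 27 genes, 22 of them above 0. It holds the glycolytic genes GAPDH and TPI1 and the coregulator PHB2 (GAPDH and TPI1 named after their values were seen), and its median was 1.16, 1.13 and 1.31 at 2, 4 and 8 h. The next was chromosome 10 from 110 to 120 Mb (0.92, 28 genes). The lowest were chromosome 1 from 160 to 170 Mb (-0.61, 40 genes, 30 of them below 0) and chromosome 12 from 110 to 120 Mb (-0.58, 33 genes, 29 below 0). The files hold no DNA copy number, and its part was not tested.

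**Figure D5:**
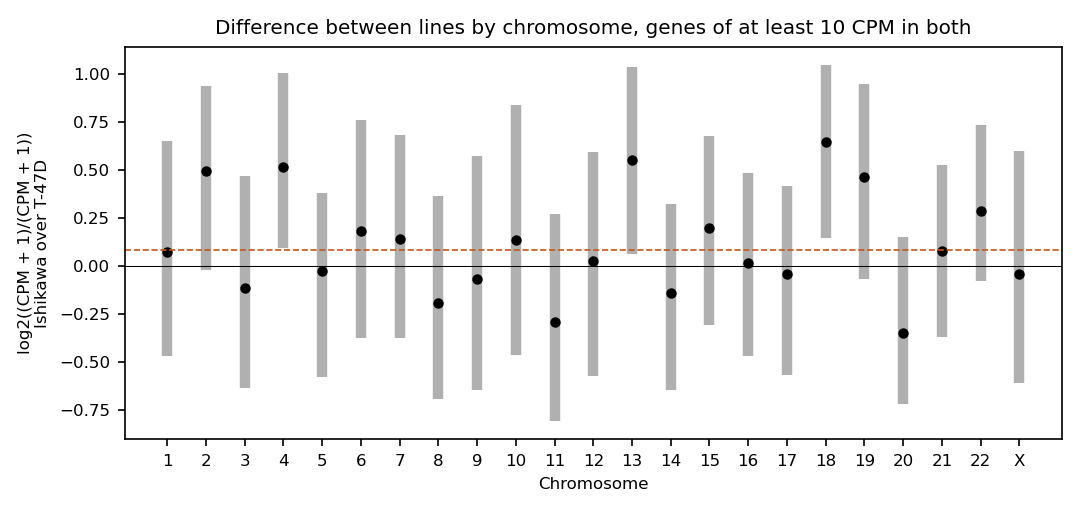
Log2 difference of Ishikawa over T-47D at 0 h (y axis) by chromosome (x axis) for the 6646 genes of at least 10 CPM in both lines. Points are medians over genes, grey bars span the quartiles, and the dashed line is the median of all, 0.085. Chromosomes 18, 13, 4, 2 and 19 lie highest and chromosomes 20 and 11 lowest, with broad overlap of the quartiles.

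Most of the differences held over the E2 series. Of the 744 genes higher in Ishikawa 545 (73.3%) were called in the same direction at 0, 2, 4 and 8 h, and of the 606 higher in T-47D 488 (80.5%). Only 1 of the called genes had the other sign at any later time. Because the pools of 1 line share its library, they are not replicates. GATA3 stayed at 495 to 568 CPM in T-47D and 0 to 0.0362 CPM in Ishikawa at 2, 4 and 8 h, PAX8 at 102 to 131 CPM in Ishikawa and 0 in T-47D, and GSTP1 at 925 to 1051 and 0.0840 to 0.345 CPM. The expression of a few genes was concentrated in few cells: in 28 of the Ishikawa calls and 20 of the T-47D calls the top 1% of cells held over 20% of the UMIs.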

How the data were processed

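The authors deposited, for each line, a matrix of UMI counts per gene and cell barcode made with Cell Ranger 3.1.0 on build hg38 (submitters' processing notes), and a table of MULTI-seq calls made with the demultiplex R package, 1 culture per line and time. Doublets called from the tags (1909 Ishikawa and 1442 T-47D barcodes) and uncalled barcodes were left out, and no other doublet caller was run. Of 2032 called Ishikawa cells at 0 h 776 (38.2%) were within the limits, and all 1525 T-47D cells were used. Counts were summed per line and matched by gene identifier, and CPM was computed without mitochondrial genes and reporters. Genes passed at 4-fold with a pseudocount of 1 CPM and at least 10 CPM in the higher line. Intervals are exact at 95% (Poisson for CPM, conditional binomial for ratios, Clopper-Pearson for shares). For shares, cells were thinned to 8000 UMIs, leaving out 14 Ishikawa cells.

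Named genes were 13 preset identity genes, the 12 largest log2 differences per direction at 100 CPM or more, the 5 largest CPM differences per direction, and up to 6 called members per direction of each of 26 lists, with uncalled members given where a list is described. The members and lists were chosen with earlier results of these data known, and genes said to be named after their values were seen fall outside this rule. Some genes that met the rule are not reported here. Gene positions and promoters came from RefSeq tables (GRCh38.p14), matched by symbol. Alternatives covered the fold, minimum, pseudocount, scaling (TMM of edgeR 4.0.16 and median of ratios), cell filters and later times. Analyses used Python 3.11.15, numpy 2.4.6, scipy 1.17.1, pandas 2.3.3 and R 4.3.3. The separate tag libraries were not used here.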

Additional observations from a re-analysis of the deposited data

Results flagged for a closer look

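The Ishikawa matrix holds counts of the reporters GFP and tdTomato, which the comparison left out, and the T-47D matrix has no such features. In the 0 h Ishikawa pool 715364 UMIs were GFP, 4.67% of all its UMIs, with at least 1 in each of the 776 cells, a median of 0.697% and a maximum of 70.1% of a cell's UMIs. For tdTomato 480 UMIs were counted, in 206 cells (26.5%, 95% Clopper-Pearson interval 23.5% to 29.8%). Both are far above the limit that a count of 0 allows, and the sources used here do not say where the reporters come from. With only the 446 Ishikawa cells under 1% GFP, 693 genes were higher in Ishikawa and 632 in T-47D, and 651 of the 744 and 593 of the 606 calls were kept.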

How the results depend on the processing

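The counts moved by over 1.5 times only with the rule itself or with a pseudocount of 5 CPM. Genes higher in Ishikawa numbered 2041 at 2-fold, 401 at 8-fold, 234 with a minimum of 50 CPM, 1155 with no minimum and 409 with a pseudocount of 5 CPM, against 744, and those higher in T-47D 1488 at 2-fold, 311 at 8-fold, 274 at 50 CPM and 375 with a pseudocount of 5 CPM, against 606. At 50 CPM 2 endometrial epithelial markers were higher in Ishikawa, against 4. Under changes of cells, scaling or time the counts ran from 566 (TMM) to 943 (every called cell) for Ishikawa and from 549 (every called cell) to 809 (TMM) for T-47D. With median-of-ratios factors they were 569 and 804. No named gene changed sign among the called, and 105 of 134 kept their call in all 16 settings that change cells, scaling, pseudocount or time. CDCA3 lost it in 10 settings, MKI67 and HJURP in 8, ATF3 in 7, and COL1A1, MALAT1 and PSMB9 in 6. No replicate could be left out. No paired analysis was possible because each line was 1 culture and the results come from no test. Depth limits genes near the floor: 155 of the Ishikawa calls and 113 of the T-47D calls rest on 3 or fewer UMIs in the other line.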
